A study of Mus musculus with 2 samples.

Results

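Mitochondria-rich hepatocyte barcodes were 368 of the 6440 cell barcodes of mouse liver measured by droplet RNA sequencing, 87 of 1366 in the GS-KO library and 281 of 5074 in the control library. A barcode was chosen when RNA encoded on the mitochondrial genome (mt RNA) made up over 20% and at most 80% of its UMIs (unique molecular identifiers, each marking 1 captured RNA molecule). Further limits were 500 UMIs, 200 detected genes and a share of at least 2% of the non-mt UMIs from 7 hepatocyte genes, Alb, Apoa1, Apoa2, Apoc1, Ttr, Fabp1 and Trf. Hepatocyte barcodes that met the same limits but had at most 20% mt RNA, called low-mt here, numbered 63 in the GS-KO and 661 in the control library. The mt share and the 7 genes chose the barcodes. Every difference in RNA between mt-rich and low-mt barcodes of a library is therefore a description, with no test.

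In the GS-KO library the cells were those of 1 tumour-bearing Glul f/f mouse, 7 weeks after infection with AAV8-Cre. The control cells were those of 1 tumour-bearing mouse that was also Glul f/f, 7 weeks after AAV8-GFP. Glul encodes glutamine synthetase (GS), which joins ammonia to glutamate. Cre recombinase cuts out a floxed stretch, and AAV8 delivers it mainly to hepatocytes, so other cell types need not carry the deletion. The tumours are β-catenin mutant per the series title, and tumour hepatocytes were not told apart from other hepatocytes here. Cells were taken from the supernatant of the first spin after collagenase perfusion, enriched with beads for the macrophage protein F4/80 and passed through dead cell removal, so hepatocytes were not the cells aimed for. With 1 mouse per group, the variation between mice is unknown, and every interval given is a 95% interval for counting error only. The labels name a 3PrimeV2 chemistry and in 1 place a single-nucleus assay, and which of these holds was not settled here.

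The mitochondrial genome encodes 13 proteins, all subunits of the respiratory chain complexes I, III and IV and of ATP synthase, while the nucleus encodes the other subunits and the mitochondrial ribosome. Hepatocytes hold many mitochondria, which carry fatty acid oxidation and the first steps of the urea cycle. In droplet data a high mt share is widely used as a sign of a damaged cell that has lost cytoplasmic RNA. Nothing measured here tells such a cell from one with more mitochondria, or either from a droplet of free RNA, and a high share of mt RNA is not a count of mitochondria.

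Mt-rich barcodes made up 58.0% (49.7 to 66.0) of the 150 hepatocyte barcodes in the GS-KO library and 29.8% (26.9 to 32.9) of the 942 in the control library. They were shallow. Non-mt UMIs per mt-rich barcode ran from 245 through a median of 643 to 5957 in the GS-KO library, and from 265 through 799 to 73770 in the control library. Low-mt barcodes had medians of 2636 and 12236 non-mt UMIs in the GS-KO and control libraries. The mt UMIs were also more numerous, with medians of 877 in mt-rich against 104 in low-mt barcodes of the GS-KO library, and 1307 against 391 in the control library. In both libraries the median mt-rich barcode thus had fewer non-mt and more mt UMIs than the median low-mt one, although the control barcodes at 20 to 35% mt were as deep as low-mt ones.

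**Figure D1:**
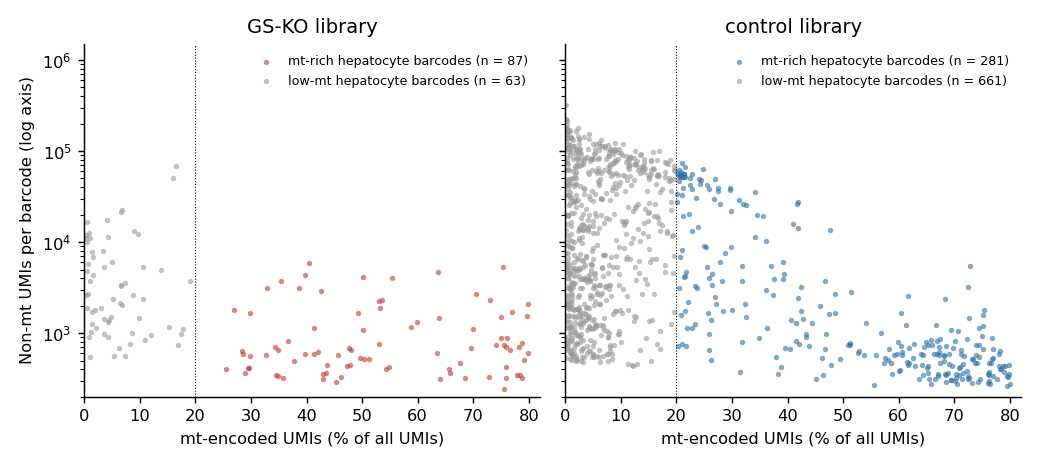
Non-mt UMIs per barcode (log axis) against the share of UMIs from mt-encoded genes, for hepatocyte barcodes of the GS-KO library (left) and the control library (right). Each point is 1 barcode, with mt-rich barcodes in colour and low-mt barcodes in grey, and the dotted line is at 20%. The deep mt-rich barcodes lie in the control library just above 20%.

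The mt-rich barcodes of the libraries were spread differently over the mt share. In the GS-KO library 72 of the 87 had over 35% mt RNA and held 87.7% of the non-mt UMIs. The control library had 190 of its 281 over 35%, but these held 12.03% of the non-mt UMIs, and the 91 barcodes at 20 to 35%, with a median of 14634 non-mt UMIs, held 88.0%. Control values summed over all mt-rich barcodes therefore describe mostly those 91 barcodes. Summed GS-KO values also lean on few barcodes. The 10 deepest of the 63 low-mt GS-KO barcodes held 59.5% of the non-mt UMIs of that class, and the deepest alone 16.6%. Among the 87 mt-rich GS-KO barcodes the 10 deepest held 40.4%. The barcodes over 35% mt had medians of 669.5 non-mt UMIs in the GS-KO and 573.5 in the control library, and their values are given beside those of all mt-rich barcodes for the main results; this limit was chosen after the data were seen. At the lower edge of the rule, the GS-KO library had 0 barcodes at 20 to 22% and 1 at 18 to 20%, and the control library had 32 just inside, with a median of 36209.5 non-mt UMIs, and 22 just outside, with 41578.5. At the upper edge, 8 GS-KO barcodes at 78 to 80% had a median of 656.5 non-mt UMIs and 8 at 80 to 82% had 530, while 13 control barcodes on each side had 399 inside and 396 outside. At the edge on the 7 genes, 9 GS-KO barcodes at 2 to 2.5% had a median of 430 non-mt UMIs and 9 at 1.5 to 2% had 1632. The control library had 22 barcodes inside that edge, with a median of 557.5, and 20 outside it, with 1060. The libraries shared 1 barcode sequence, which was not mt-rich in either.

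All of 18 hepatocyte marker genes had UMIs in the mt-rich barcodes of both libraries. The list includes the 7 genes that chose the barcodes, so it is no independent check of the label. Together the 18 made up 71183 CPM (UMIs per 1000000 non-mt UMIs, here and below) in mt-rich and 78873 in low-mt barcodes of the GS-KO library. The control barcodes had 93220 CPM of them in the mt-rich and 80266 in the low-mt class. Most of these sums came from the 7 genes, with 60242 and 68975 CPM in the GS-KO and 79782 and 69937 in the control library. Of the other markers, Cps1 and Tat had 2 and 4 UMIs in GS-KO mt-rich barcodes, while Hpx and Cyp2e1 had 282 and 113. Among the genes that chose the barcodes, Alb, the main plasma protein, had 16626 CPM in mt-rich and 11978 in low-mt GS-KO barcodes, and 15976 against 9026 in the control library. Fabp1, the liver fatty acid binding protein of the cytosol, had 3614 against 7299 CPM in the GS-KO library and 10900 against 9197 in the control library. Over 35% mt, Fabp1 was also below the low-mt level in the control library, at 8407 CPM. Apoa2, an HDL apolipoprotein, had 12553 against 19123 CPM in the GS-KO library and 17506 against 17311 in the control library. Thinned to 200 non-mt UMIs per barcode, Apoa2 was detected in 85.1% of GS-KO and 80.8% of control mt-rich barcodes. Among low-mt barcodes of other cell types, thinning left Apoa2 in 2.84% (GS-KO) and 6.39% (control). Those barcodes were set apart by having under 2% of the 7 genes, Apoa2 among them, so this difference follows from the rule. Unthinned, those shares were 18.03% and 71.3%, with medians of 4096 and 6670 non-mt UMIs per barcode.

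RNA of other liver cells was also present. A summed share over 1% from 11 marker lists of other cell types was found in 19 of 87 GS-KO (21.8%) and 98 of 281 control (34.9%) mt-rich barcodes, against 4 of 63 (6.35%) and 40 of 661 (6.05%) low-mt barcodes. The libraries differed along the mt share. Such barcodes were 33.3% at 20 to 35% mt and 3.33% at 65 to 80% in the GS-KO library. In the control library they were 5.49% at 20 to 35% mt and 53.8% at 65 to 80%. Over 35% mt, the 9 macrophage genes summed to 3186 CPM (2828 to 3578) in the GS-KO and 3264 (3059 to 3479) in the control library, and the 9 genes of Kupffer cells, the resident macrophages, to 1783 and 1351 CPM. All 9 of each list had UMIs in both libraries. The low-mt hepatocyte barcodes had 205 and 348 CPM of the macrophage list and 178 and 269 of the Kupffer list. Endothelial genes summed to 1415 and 349 CPM over 35% mt, platelet genes to 824 and 72.5, and stellate genes to 557 and 100.2, higher in the GS-KO library in each case, while erythroid genes summed to 379 and 1475. Neutrophil genes summed to 724 and 653 CPM, with Ltf at 0 in both libraries, and monocyte genes to 512 and 359, with Chil3 at 0 in both. T and NK cell genes summed to 33.4 and 72.5 CPM with Klrb1c at 0 in both, and the cholangiocyte list to 11.1 and 31.1 with Krt7, Epcam and Cldn7 at 0 in both. The part of this RNA in the differences below was not tested, apart from values without the barcodes over 1%.

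The mt-encoded transcripts did not keep the same proportions as the mt share increased. The share of mt UMIs taken by mt-Atp8, a small subunit of ATP synthase, was 1.13% (1.08 to 1.18) in mt-rich and 0.265% (0.216 to 0.322) in low-mt GS-KO barcodes. It was 0.200% (0.191 to 0.209) in mt-rich and 0.109% (0.104 to 0.114) in low-mt control barcodes. Within the mt-rich barcodes it was highest at 65 to 80% mt, at 1.56% in the GS-KO and 0.450% in the control library. mt-Nd5, a large subunit of complex I, made up 2.39% (2.31 to 2.46) against 1.00% (0.904 to 1.11) in the GS-KO library and 1.15% (1.13 to 1.17) against 0.732% (0.719 to 0.745) in the control library. mt-Nd2, another complex I subunit, made up 8.38% against 5.31% in the GS-KO and 8.41% against 6.89% in the control library. mt-Co1, the catalytic subunit of complex IV, made up 20.8% against 16.4% in the GS-KO and 11.5% against 10.5% in the control library. Among low-mt barcodes mt-Co1 was lowest at 10 to 20% mt, with 15.3% in the GS-KO and 9.76% in the control library, and below 10% mt it was 18.9% and 11.5%, so the control mt-rich share was level with that group. mt-Cytb, the mt-encoded subunit of complex III, went the other way, with 10.0% (9.87 to 10.2) against 12.3% (12.01 to 12.7) in the GS-KO and 12.3% (12.2 to 12.3) against 16.9% (16.8 to 16.9) in the control library. mt-Cytb was lower with each step of the mt share in the control library. In the GS-KO library it was 10.2% of mt UMIs below 10% mt and 13.2% at 10 to 20%. Its higher low-mt value there thus comes from the group at 10 to 20%. Of the 26640 mt UMIs of that group, 13555 came from 1 barcode, beside 37736 mt UMIs in all low-mt GS-KO barcodes. The low-mt GS-KO shares of all mt genes therefore lean on 1 barcode, and their values without it were not computed. mt-Atp8 and mt-Atp6 are read from overlapping frames of 1 transcript, as are mt-Nd4l and mt-Nd4, so how reads were divided within these pairs is uncertain.

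**Figure D2:**
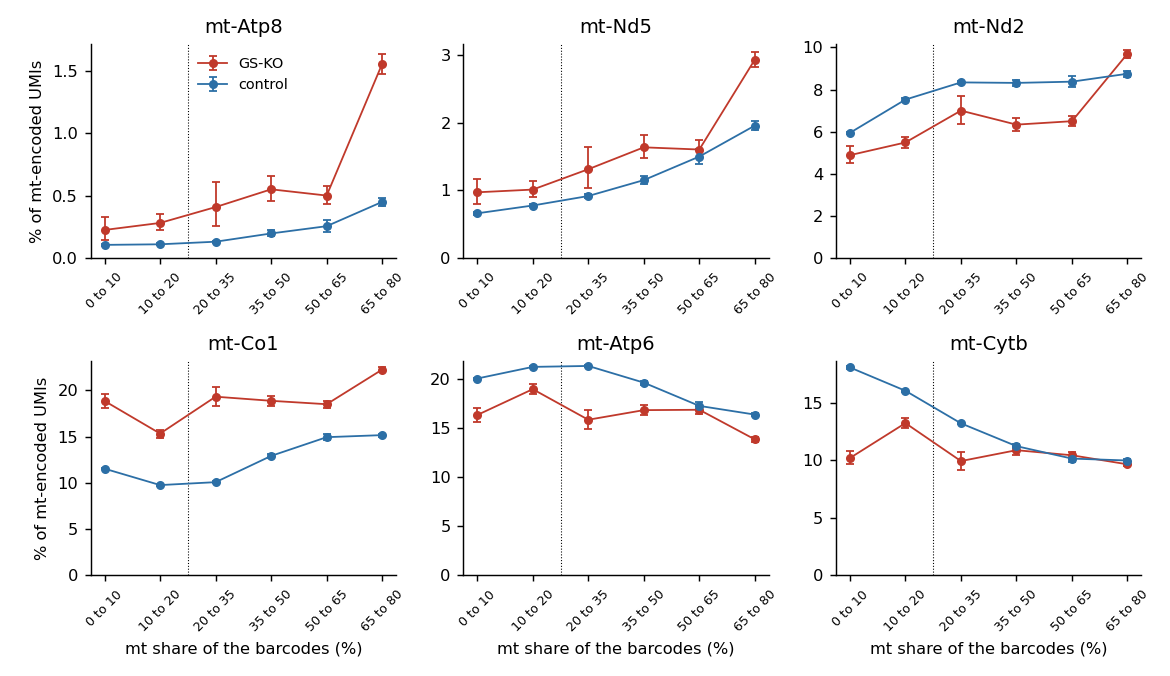
Share of all mt-encoded UMIs taken by 6 mt genes (y axis, percent, from 0) in hepatocyte barcodes grouped by their mt share (x axis, percent of all UMIs), for the GS-KO and control libraries. Points are summed UMIs, bars exact binomial 95% intervals, and the dotted line marks 20%. mt-Atp8 and mt-Nd5 reach 1.56% and 2.94% in the GS-KO and 0.450% and 1.96% in the control library at 65 to 80% mt.

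Among non-mt genes, RNA counted at ribosomal RNA loci was higher in mt-rich than in low-mt hepatocyte barcodes of both libraries. Gm42418 is annotated as a long non-coding RNA but overlaps a cluster of ribosomal RNA. It had 62294 CPM (60774 to 63842) in mt-rich and 12658 (12318 to 13005) in low-mt GS-KO barcodes, a ratio of 4.92 (4.74 to 5.11). The control library had 20974 CPM (20792 to 21158) of it in mt-rich and 8001 (7964 to 8038) in low-mt barcodes, a ratio of 2.62 (2.60 to 2.65). Over 35% mt, its ratio to the low-mt level was 4.98 (4.80 to 5.17) in the GS-KO and 10.8 (10.7 to 11.0) in the control library. Low-mt barcodes of other cells had 10002 CPM of Gm42418 in the GS-KO and 23691 in the control library. The control value lay above that of all control mt-rich barcodes, but below the 86604 CPM of those over 35% mt. Per barcode, Gm42418 ran from 7561 through a median of 43544 to 423230 CPM in mt-rich and from 719 through 11660 to 194480 in low-mt GS-KO barcodes. Control values ran from 0 through 80863 to 454320 CPM in mt-rich and from 0 through 19678 to 220850 in low-mt barcodes, so single barcodes of the classes overlapped in both libraries. At 65 to 80% mt, Gm42418 stood at 101760 CPM in the GS-KO and 110600 in the control library. AY036118, which lies within Gm42418 on the opposite strand of chromosome 17, was 4.27-fold (3.34 to 5.46) higher in the GS-KO and 2.37-fold (2.17 to 2.58) higher in the control library; with strand use in counting not given in the sources used here, the reads of this pair are uncertain. Lars2, the mitochondrial leucyl-tRNA synthetase, had 2647 against 400.2 CPM in the GS-KO library, 6.62-fold (5.43 to 8.07) higher. The control library had 774 against 212 CPM of Lars2, 3.65-fold (3.46 to 3.85) higher. Over 35% mt, Lars2 had 2507 CPM in the GS-KO library, a ratio of 6.26 (5.10 to 7.70) to the low-mt level, and 3216 CPM in the control library, a ratio of 15.2 (14.1 to 16.3). The same ratios of AY036118 were 4.41 (3.42 to 5.68) in the GS-KO and 9.89 (8.80 to 11.1) in the control library.

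A further gene was tied to mt RNA by its sequence. Gm20594 (ENSMUSG00000096887, annotated as protein coding) lies at chromosome 6, 79817916 to 79818364, plus strand, of GRCm38. Among all transcripts of the matrix genes found in the annotation, it was the only nuclear gene that shared a run of at least 40 identical bases with a transcript of the mitochondrial genome. That run is 65 bases long and matches mt-Rnr2, the 16S ribosomal RNA of mitochondria. Both stretches are shown 5′ to 3′ with the shared run in capitals, the first at chromosome 6, 79818273 to 79818357, and the second at chromosome M, 2092 to 2176, both on the plus strand.
Gm20594: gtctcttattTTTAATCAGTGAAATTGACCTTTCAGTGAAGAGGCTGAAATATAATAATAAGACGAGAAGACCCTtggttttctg
mt-Rnr2: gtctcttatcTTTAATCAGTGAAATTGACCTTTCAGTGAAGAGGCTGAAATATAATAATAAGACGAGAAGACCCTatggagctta
The deposited matrices counted 13 mt genes, all protein coding, so reads of mt-Rnr2 had no row of their own. Gm42418 shared at most 15 bases with mt-Rnr1, the 12S ribosomal RNA, shown likewise from chromosome 17, 39848146 to 39848180, and chromosome M, 970 to 1004, on the plus strand.
Gm42418: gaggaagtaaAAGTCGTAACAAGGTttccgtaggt
mt-Rnr1: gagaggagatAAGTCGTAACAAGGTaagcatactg
Lars2 shared at most 14 bases with mt-Rnr1 and 12 with mt-Rnr2, far shorter than the run in Gm20594.

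Gm20594 had 44 UMIs in the 87 mt-rich GS-KO barcodes, 430 CPM (312 to 577), and 0 in the 63 low-mt ones. Set against a floor of 3 counts over the low-mt barcodes, that is 59.4-fold higher, and the lower bound of the ratio interval was 46.3. Control barcodes had 17 UMIs, 7.07 CPM (4.12 to 11.3), in the mt-rich and 7 UMIs, 0.306 CPM (0.123 to 0.631), in the low-mt class, a ratio of 23.1 (9.09 to 65.8). Counted per 1000000 mt UMIs instead, Gm20594 stood at 280 (203 to 375) in mt-rich GS-KO barcodes, 146 (133 to 159) in barcodes over 80% mt and 146 (88.2 to 229) in low-mt barcodes of other cells. The 0 in low-mt GS-KO hepatocyte barcodes allows up to 97.8 on this scale. The control values were 16.6 (9.70 to 26.6) in mt-rich barcodes, 22.9 (19.1 to 27.2) over 80% mt and 7.93 (3.62 to 15.04) in other cells, and 4.45 (1.79 to 9.18) in low-mt hepatocyte barcodes. On the mt scale the classes of 1 library were closer to each other than on the non-mt scale, and the GS-KO library lay above the control library in mt-rich barcodes, in barcodes over 80% mt and in other cells.

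**Figure D3:**
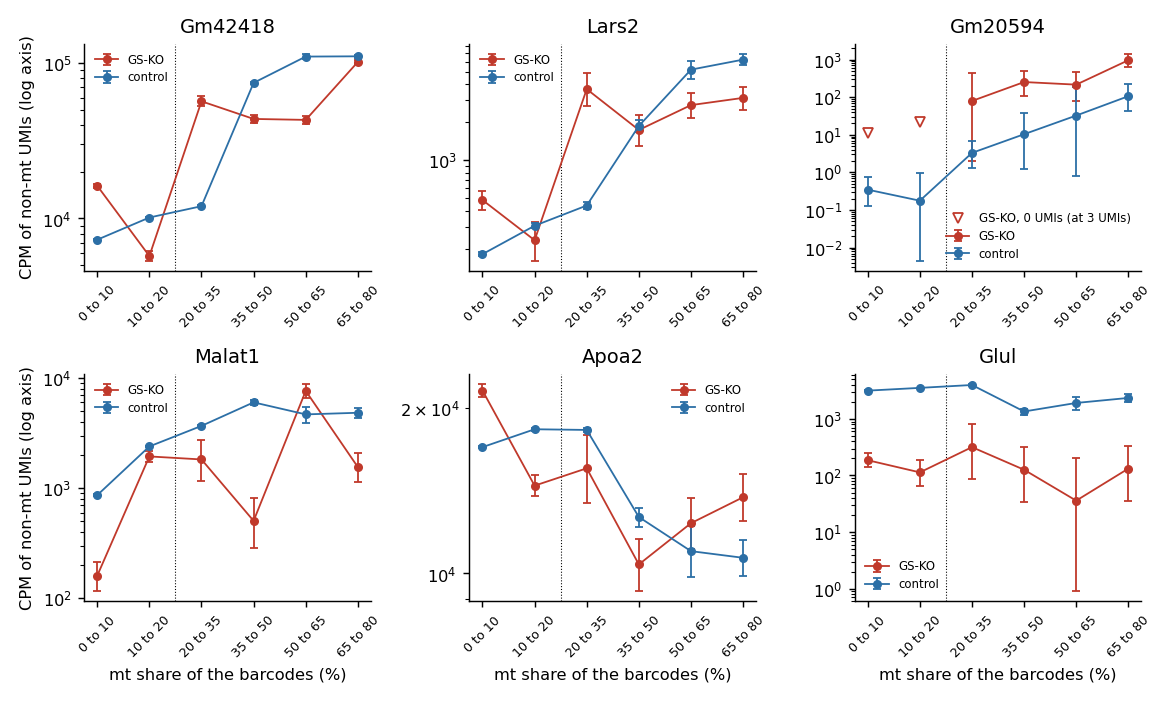
Level of 6 genes in CPM of non-mt UMIs (log axes) in hepatocyte barcodes grouped by mt share (x axis, percent), for the GS-KO and control libraries. Points are summed UMIs, bars exact Poisson 95% intervals, open triangles mark groups with 0 UMIs drawn at 3 counts, and the dotted line marks 20%. Gm42418 reaches 101760 and 110600 CPM at 65 to 80% mt, while Glul lies lower in the GS-KO than in the control library in each of the 6 groups.

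Of 8 genes whose RNA is kept in the nucleus, 3 were measured in the GS-KO library, 1 of them at least 1.5-fold higher beside 14.9% of all genes, with a median log2 ratio of 0.33. In control barcodes 7 were measured and 6 higher, beside 24.2% of all genes, with a median of 1.00. Malat1, a long RNA of nuclear speckles, had 2921 against 767 CPM in the GS-KO and 3910 (3832 to 3990) against 1242 (1227 to 1256) in the control library. In the GS-KO library 1 barcode held 68.6% of the mt-rich Malat1 UMIs, and the mean over barcodes was 1718 CPM in mt-rich and 469 in low-mt barcodes. Thinned to 200 UMIs, Malat1 was seen in 21.8% (13.7 to 32.0) of mt-rich and 11.1% (4.59 to 21.6) of low-mt GS-KO barcodes, and in 38.8% (33.1 to 44.8) and 14.98% (12.3 to 17.9) of the control ones. Other cells, which also express Malat1, showed it after the same thinning in 78.1% (GS-KO) and 74.8% (control). Neat1, the long RNA of paraspeckles, had 147 against 193 CPM in the GS-KO library, a ratio of 0.760 (0.406 to 1.33), and 1026 against 353 CPM in the control library, a ratio of 2.90 (2.78 to 3.04).

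Counted over all genes, 3149 had at least 20 UMIs in the hepatocyte barcodes of the GS-KO library. Of these, 231 (7.34%) were at least 2-fold higher and 512 (16.3%) at least 2-fold lower in mt-rich barcodes, and the interval of the ratio lay beyond 1 for 170 and 192 of them. In the control library 11661 genes were measured, 976 (8.37%) at least 2-fold higher and 402 (3.45%) lower, with the interval beyond 1 for 758 and 132. The GS-KO shares over 35% mt were 7.83% higher and 17.8% lower, and the control shares 18.7% higher and 18.2% lower. Among 1478 genes with at least 50 UMIs in both libraries, 18 were at least 2-fold higher in both and 0 at least 2-fold lower in both. Of the 18, 10 had over 5 times the level in other cells or were of a kind left out of the naming, and the 8 left were Sparc, Lars2, Pf4, Pigr, Gm42418, Gng11, AY036118 and Nrgn. Sparc, a matrix protein, had 134 UMIs, 1309 CPM, against 72 UMIs, 174 CPM, in the GS-KO library, 7.54-fold (5.62 to 10.2) higher, and 109 UMIs against 127, 8.15-fold (6.25 to 10.6) higher, in the control library. The platelet chemokine Pf4 was 7.70-fold (4.87 to 12.4) and 4.75-fold (2.75 to 7.995) higher, on 57 UMIs from 11 and 23 UMIs from 10 mt-rich barcodes of the GS-KO and control libraries. Without barcodes over 1% of other cells' markers, the log2 ratio of Pf4 in the control library was -0.07 and that of Nrgn -0.35. That of Sparc was 3.85 in the GS-KO and 2.83 in the control library. Pf4 is itself among those markers, so this limit removes barcodes rich in it, while Nrgn and Sparc are not among them. A single barcode held 51.4% of the low-mt Sparc UMIs in the GS-KO and 50.4% in the control library. Pigr, the polymeric immunoglobulin receptor, had 332 against 72.3 CPM in the GS-KO library, a ratio of 4.59 (2.73 to 7.77), and 182 against 29.3 in the control library, 6.22 (5.50 to 7.02), or 13.2 (10.7 to 16.2) over 35% mt; at most 50% mt, its log2 ratio in the GS-KO library was -0.65.

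The nuclear genes of the respiratory chain are described next. Among all genes measured, the median log2 ratio of mt-rich over low-mt barcodes was -0.21 in the GS-KO library, where 30.8% were at least 1.5-fold lower, and 0.24 in the control library, where 7.8% were. For the 37 nuclear complex I genes the median was -0.57, with 17 lower and 0 higher at 1.5-fold, in the GS-KO library and -0.30, with 1 lower and 0 higher, in the control library. The 12 nuclear complex IV genes had medians of -0.60 with 7 lower and -0.33 with 1 lower, and the 15 ATP synthase genes -0.63 with 9 lower and -0.24 with 2 lower, in the GS-KO and control libraries. The 13 genes of complexes II and III had -0.34 with 5 lower and -0.15 with 1 lower. Ndufa4, a respiratory chain subunit, had 1055 against 1998 CPM in the GS-KO library, 1.89-fold (1.55 to 2.34) lower, and 1507 against 2027 in the control library, 1.35-fold (1.30 to 1.39) lower. Cox4i1, of complex IV, had 1260 against 1767 CPM in the GS-KO and 1455 against 1821 in the control library. Over 35% mt the complex I median was -0.61 in the GS-KO library, with 20 of 37 lower beside 33% of all genes, and -0.54 in the control library, with 16 of 37 lower beside 26.7% of all genes. The control medians there were -0.53 for complex IV, with 5 of 12 lower, -0.41 for ATP synthase, with 3 of 15 lower, and -0.31 for complexes II and III, with 2 of 13 lower, beside 0.05 for all genes. In the control library the counts lower over all mt-rich barcodes were thus 1 or 2 genes a list, beside 7.8% of all genes. Over 35% mt the shares lower of ATP synthase and of complexes II and III were below the 26.7% of all genes. Of the 78 mitochondrial ribosomal protein genes, 62 were measured in the GS-KO library, with a median of -0.53, 30 lower and 5 higher, and 78 in the control library, with -0.34, 14 lower and 0 higher. The 18 glutathione S-transferase genes, enzymes of the cytosol that conjugate toxins, had medians of -0.57 with 7 lower and -0.35 with 6 lower, and over 35% mt 12 and 6 were lower; Gsta2 was 1.90-fold (1.66 to 2.19) lower in the GS-KO and 1.59-fold (1.55 to 1.64) lower in the control library.

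Genes of secreted plasma proteins, whose RNA is bound to the endoplasmic reticulum, lay above the median of all genes. Of 30, 27 were measured in the GS-KO library, with a median log2 ratio of 0.36, 9 higher and 2 lower at 1.5-fold, beside 14.9% of all genes higher. All 30 were measured in the control library, where the median was 0.50, with 11 higher and 1 lower, beside 24.2% of all genes higher. Hpx, the haem-binding hemopexin, had 2755 against 1352 CPM in the GS-KO library, 2.04-fold (1.76 to 2.35) higher, and 1668 against 1447 in the control library, 1.15-fold (1.12 to 1.19) higher. Vtn, vitronectin, was 1.93-fold (1.60 to 2.32) and 1.13-fold (1.09 to 1.17) higher. Over 35% mt the medians were 0.32 in the GS-KO library, with 9 of 27 higher beside 15.8% of all genes, and 0.39 in the control library, with 12 of 30 higher beside 29.8% of all genes. The summed level of the list hardly differed in the GS-KO library, with a ratio of 1.01 (0.969 to 1.05). Among barcodes of at most 50% mt, the GS-KO median was -0.05. Ferritin RNA was split in the GS-KO library, with Fth1, the heavy chain, at 18765 against 26189 CPM and Ftl1, the light chain, at 22409 against 18012, while in the control library both were lower in mt-rich barcodes, at 16490 against 30033 and 12227 against 19081.

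**Figure D4:**
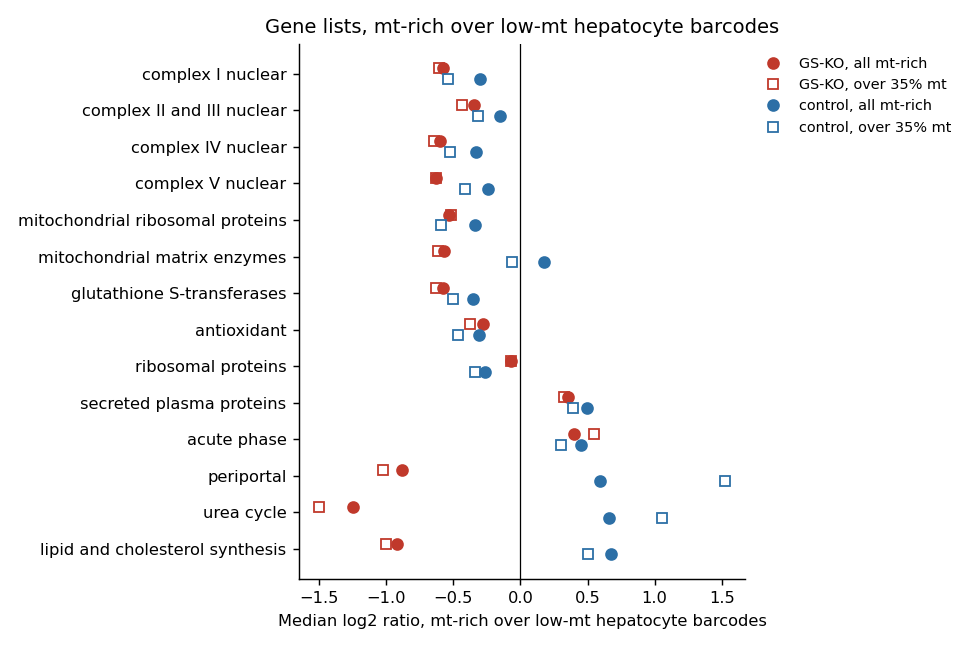
Median log2 ratio of mt-rich over low-mt hepatocyte barcodes (x axis) for 14 gene lists, in the GS-KO and control libraries. Filled circles are all mt-rich barcodes and open squares those over 35% mt. The nuclear respiratory chain lists lie below 0 in both libraries, at -0.34 to -0.63 (GS-KO) and -0.15 to -0.33 (control) for all mt-rich barcodes, and the urea cycle, periportal and lipid synthesis lists lie on opposite sides for these summed UMIs, though not under every weighting of barcodes.

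Genes of periportal hepatocytes, the cells near the vessels that enter the lobule, include those of the urea cycle. Of 8 urea cycle genes, 7 were measured in the GS-KO library with a median log2 ratio of -1.25, 6 lower and 0 higher, beside 30.8% of all genes lower. All 8 were measured in the control library, with a median of 0.66, 4 higher and 0 lower, beside 24.2% of all genes higher. The control median was -0.23 as a mean over barcodes and -0.024 after thinning to 200 UMIs, so its direction depends on how barcodes are weighted. The medians over 35% mt were -1.50 and 1.05. Arg1, arginase, had 8 UMIs, 78.1 CPM, against 145 UMIs, 349.5 CPM, in the GS-KO library, 4.47-fold (2.21 to 10.6) lower. Control barcodes had 237 UMIs, 98.5 CPM, against 617 UMIs, 27.0 CPM, of Arg1, a ratio of 3.65 (3.13 to 4.24). Between the mt-rich barcodes themselves, GS-KO over control, the Arg1 ratio was 0.793 (0.339 to 1.59). Ass1, argininosuccinate synthase, had 615 against 1292 CPM in the GS-KO and 309 against 151 in the control library, and Pck1, of gluconeogenesis, 127 against 333 and 74.8 against 20.2. Cps1, which starts the urea cycle, had 2 UMIs against 32 in the GS-KO library and 520 against 448, 216 against 19.6 CPM, in the control library. With the low-mt barcodes weighted to the depth of the mt-rich ones, the GS-KO ratio of Cps1 was above 1, at 2.49 on the log2 scale. As a mean over barcodes, the control ratio of Ass1 was below 1, at -0.41 on the log2 scale, as were those of Arg1, at -0.48, and Pck1, at -0.11.

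The libraries were then compared within the mt-rich barcodes, the question being how hepatocyte RNA differed after Cre. Glul, the targeted gene, is described first. It had 13 UMIs, 127 CPM (67.6 to 217), in the GS-KO and 8902 UMIs, 3700 CPM (3623 to 3777), in the control mt-rich barcodes, 29.1-fold (17.0 to 54.7) lower. Over 35% mt it had 9 UMIs, 100.3 CPM, and 475 UMIs, 1641 CPM, 16.4-fold (8.55 to 36.0) lower. Low-mt hepatocyte barcodes had 162 and 3258 CPM. Thinned to 200 UMIs, Glul was seen in 5 of 87 GS-KO (5.75%, 1.89 to 12.9) and 80 of 281 control (28.5%, 23.3 to 34.1) mt-rich barcodes, and without thinning in 10.3% and 66.2%. Among other cells' low-mt barcodes the thinned shares were 1.34% (GS-KO) and 4.09% (control), and the unthinned ones, at medians of 4096 and 6670 non-mt UMIs, were 31.2% and 58.3%. Glul (ENSMUSG00000026473) lies on chromosome 1 at 153899944 to 153909723, plus strand, of GRCm38, and the deleted part is not given in the sources used here, so its 3′ count says nothing about the deletion in a given cell.

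Over 7971 genes measured in mt-rich barcodes, 962 (12.1%) were at least 2-fold higher and 2448 (30.7%) at least 2-fold lower in the GS-KO library, and the interval lay beyond 1 for 437 and 445. Over 35% mt, 2533 genes were measured, 222 (8.76%) higher and 393 (15.5%) lower; 139 of the higher and 321 of the lower genes were in both sets. The median of all genes was -0.30 over all mt-rich barcodes and -0.01 over 35% mt, on the log2 scale.

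Pericentral genes, those of hepatocytes around the central vein where Glul is made, were lower as a group in the GS-KO library. All 20 were measured, 19 were at least 1.5-fold lower and 0 higher, and the median log2 ratio was -1.48, beside 40.9% of all genes lower. Over 35% mt, 15 were measured, 10 were lower and 0 higher, and the median was -0.75, beside 26.1% of all genes lower. Slc1a2, a glutamate transporter, had 24 UMIs, 234 CPM, and 2347 UMIs, 975 CPM, 4.16-fold (2.79 to 6.51) lower, and 2.33-fold (1.45 to 3.92) lower over 35% mt. Cyp2e1 and Cyp1a2, cytochrome P450 enzymes of drug metabolism, were 2.98-fold (2.47 to 3.62) and 2.23-fold (1.98 to 2.52) lower, and 1.69-fold (1.36 to 2.11) and 1.73-fold (1.49 to 2.02) lower over 35% mt. Oat, ornithine aminotransferase, was 2.79-fold (2.12 to 3.74) lower, but over 35% mt its ratio was 0.752 with an interval of 0.531 to 1.04. Of 15 Wnt and β-catenin target genes 13 were measured, 9 lower and 1 higher, with a median of -2.47, and over 35% mt fewer than 3 were measured. Summed, they had 53 UMIs, 518 CPM, in the GS-KO and 1868 UMIs, 776 CPM, in the control library, a ratio of 0.667 (0.498 to 0.876), so the sum differed far less than the median. Cyp2a5, also pericentral, had 3575 and 10058 CPM, 2.81-fold (2.54 to 3.13) lower, and 2.91-fold (2.59 to 3.29) lower over 35% mt. In low-mt hepatocyte barcodes the 20 pericentral genes summed to 15932 CPM in the GS-KO and 34341 in the control library. Slc1a2, Cyp2e1, Cyp1a2, Oat and Cyp2a5 were lower in the GS-KO library there too, so the difference was not particular to mt-rich barcodes.

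The major urinary proteins, secreted pheromone carriers, were lower too. Of 16 genes 10 were measured and all 10 were lower, with a median of -2.31, beside 40.9% of all genes. Over 35% mt, 5 were measured and all 5 lower, with -2.17, beside 26.1% of all genes. Their sequences are nearly identical, so the division of reads among them is uncertain. Mup20 had 410 and 1561 CPM, 3.80-fold (2.81 to 5.29) lower, and Mup3 had 908 and 1593 CPM, 1.75-fold (1.43 to 2.18) lower, and over 35% mt they were 2.18-fold (1.57 to 3.09) and 1.99-fold (1.59 to 2.53) lower. In low-mt hepatocyte barcodes Mup20 had 412 CPM in the GS-KO and 1131 in the control library. Mup3 lay the other way there, at 798 and 501 CPM. Mup21 had 1 and 618 UMIs, a ratio of 0.0380 (0.000961 to 0.213), and 1 and 75 UMIs over 35% mt. Mup17 had 2 and 1421 UMIs, but 1405 of the control UMIs came from barcodes at 20 to 35% mt, and over 35% mt its ratio was 0.403 with an interval of 0.0450 to 1.71. Mup16 had 0 and 353 UMIs, 5.01-fold lower against 3 counts over the GS-KO barcodes, with an interval bound nearest 1 of 4.05-fold. Over 35% mt it had 0 and 2 UMIs, too few for a fold.

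The other genes named as lower in the GS-KO library were Nat8f2, Cyp2c67, Neat1, Ptprd, Eif4g1, Scd1, Igf2r and Abcc4. Nat8f2, of an acetyltransferase family, had 39.1 and 554 CPM, 14.2-fold (5.52 to 52.1) lower, and 11.9-fold (3.97 to 58.5) lower over 35% mt. Scd1, which makes monounsaturated fatty acids, had 283 and 1593 CPM, 5.62-fold (3.91 to 8.41) lower, and 7.66-fold (5.10 to 12.1) lower over 35% mt. In low-mt hepatocyte barcodes Scd1 lay the other way, at 538 CPM in the GS-KO and 315 in the control library. It belongs to a list of 19 lipid and cholesterol synthesis genes, of which 12 were lower and 3 higher, with a median of -0.81, beside 40.9% of all genes lower and 20.2% higher. Over 35% mt 7 of 11 were lower and 2 higher, with a median of -1.16, beside 26.1% of all genes lower. Ptprd and Igf2r had 0 UMIs in GS-KO mt-rich barcodes and 367 and 321 in control ones. Against 3 counts over the GS-KO barcodes they were 5.205-fold and 4.55-fold lower, with interval bounds nearest 1 of 4.21-fold and 3.68-fold. Over 35% mt the folds against 3 counts were 4.03 and 3.51. Neat1 was 7.00-fold (4.24 to 12.5) lower, and 5.27-fold (3.14 to 9.56) lower over 35% mt. Eif4g1, a scaffold of translation initiation, had 3 and 823 UMIs, 11.7-fold (3.98 to 56.7) lower, and 5.89-fold (1.92 to 29.4) lower over 35% mt. Abcc4, an efflux transporter, had 117 and 723 CPM, 6.17-fold (3.52 to 11.96) lower, and Cyp2c67, another P450, 195 and 1517 CPM, 7.76-fold (5.02 to 12.7) lower. Over 35% mt, Abcc4 was 5.33-fold (2.91 to 10.9) and Cyp2c67 4.63-fold (2.64 to 8.85) lower. Ptprd was level in low-mt hepatocyte barcodes, at 79.6 CPM in the GS-KO and 78.7 in the control library. Nat8f2, Cyp2c67, Neat1, Eif4g1, Igf2r and Abcc4 were lower in the GS-KO library there too.

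Among higher genes, Rbm3, a cold-induced RNA-binding protein, had 24 UMIs, 234 CPM, and 78 UMIs, 32.4 CPM, 7.23-fold (4.38 to 11.6) higher, and 4.84-fold (2.47 to 9.75) higher over 35% mt. Apcs, the acute phase protein serum amyloid P, had 381 and 100.6 CPM, 3.79-fold (2.63 to 5.33) higher, and 4.09-fold (2.37 to 7.13) higher over 35% mt. Tuba1b, a tubulin, was 3.76-fold (2.57 to 5.36) higher, App, the amyloid precursor, 4.92-fold (2.96 to 7.85), and Il6st, a receptor chain of interleukin 6, 4.06-fold (2.49 to 6.36). Over 35% mt these ratios were 5.28 (3.02 to 9.42) for Tuba1b, 3.98 (2.00 to 8.04) for App and 3.90 (2.03 to 7.58) for Il6st. In low-mt hepatocyte barcodes Tuba1b lay the other way, at 94.0 CPM in the GS-KO and 152 in the control library. Il6st was nearly level there, at 33.7 and 35.4 CPM, while Rbm3, Apcs and App were higher in the GS-KO library there too. Pf4, Nrgn, Sparc and Gng11 were 58.3-fold (35.3 to 99.1), 48.0-fold (28.9 to 81.8), 28.9-fold (22.3 to 37.6) and 25.8-fold (15.4 to 43.4) higher, and 10.8-fold, 11.4-fold, 3.598-fold and 3.96-fold higher over 35% mt, beside the platelet, endothelial and stellate lists given above; the part of those cells was not tested. Gm42418 and Lars2 were 2.97-fold (2.89 to 3.05) and 3.42-fold (3.00 to 3.89) higher over all mt-rich barcodes, but lower over 35% mt, with ratios of 0.728 (0.707 to 0.750) and 0.780 (0.671 to 0.903). AY036118 was 4.91-fold (4.05 to 5.90) higher, with a ratio of 1.21 (0.981 to 1.496) over 35% mt. Ribosomal protein genes had a median of 0.51, with 35 of 83 higher and 2 lower at 1.5-fold, beside 20.2% of all genes higher. Over 35% mt the median was 0.61, with 44 of 80 higher and 1 lower, beside 21.7% of all genes higher. Alb, in contrast, had 16626 and 15976 CPM, a ratio of 1.04 (0.991 to 1.09).

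**Figure D5:**
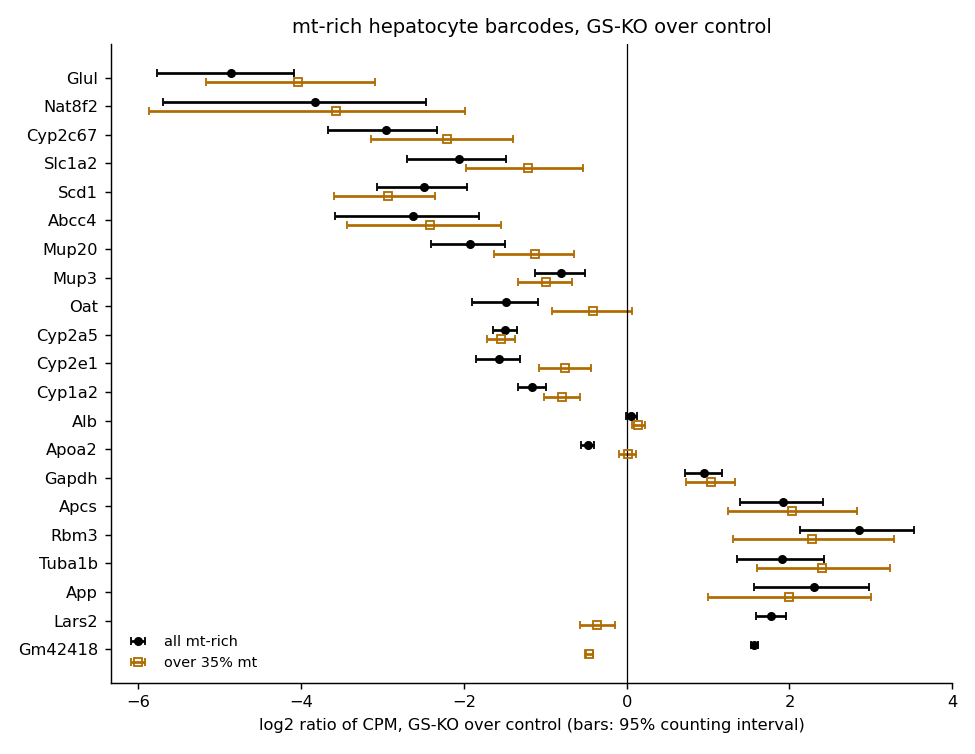
Log2 of the CPM in GS-KO divided by that in control (x axis) in mt-rich hepatocyte barcodes for 21 genes (y axis). Black circles are all mt-rich barcodes, open squares those over 35% mt, and bars are 95% counting intervals. Glul lies lowest, at ratios of 0.0343 and 0.0611, and Lars2 and Gm42418 change side over 35% mt, at ratios of 0.780 and 0.728.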

How the data were processed

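The authors deposited 1 matrix of raw UMI counts per gene and barcode for each library, made with Cell Ranger on mm10, per the submitters' processing notes, with software version 3.1.0 per the file headers. Each held 32285 genes; no barcode in the files had under 500 UMIs. The libraries held 8805330 (GS-KO) and 64770011 (control) UMIs. Positions and sequences of genes were read from the GENCODE M21 annotation of GRCm38, where 32158 of the identifiers were found.

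UMIs were summed over the barcodes of a class and scaled to the non-mt total (CPM). Levels carry exact Poisson, shares exact Clopper-Pearson and ratios conditional binomial 95% intervals. No test was run: each group is 1 mouse, and the mt share chose the barcodes. Genes with at least 20 UMIs over the classes compared were measured; log2 ratios carry a prior count of 0.5. A gene passed at 2-fold, and list members were counted at 1.5-fold. Zero counts were set to a floor of 3. Thinning drew 200 non-mt UMIs per barcode with seed 1, and no barcode was too shallow. Low-mt barcodes of other cells had under 2% of the 7 genes.

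Named were the genes at least 2-fold the same way in both libraries with at least 50 UMIs in each, and the 12 higher and 12 lower between the libraries by the interval bound nearest 1. Mt, rule, ribosomal, haemoglobin, immunoglobulin and Y-linked genes, Xist and Tsix were left out of the ranking, and genes over 5 times higher in other cells. Glul, some of the mt genes and of the rule genes, and leading members of the lists described were named besides. Gm20594, Neat1 beside Malat1, Hpx, Vtn and the ferritins were chosen after their values were seen. The barcodes, lists and rules were chosen with earlier results of these data known. Scrublet, with an expected rate of 5%, called 0 of 1366 and 1 of 5074 barcodes, so it did not work on these matrices and doublets were not removed. The calculations were tested on simulated counts. Alternatives changed the mt limits, the share of the 7 genes, depth, weighting, purity, scaling, filter, prior and the deepest barcode; weighting by mt share and the limit of 35% were added after seeing the data. Tools were scanpy 1.11.5, matplotlib 3.10.9, pandas 2.3.3, scipy 1.17.1 and numpy 2.4.6 under Python 3.11.15.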

Additional observations from a re-analysis of the deposited data

Results flagged for a closer look

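The values here drew notice because mt-rich and low-mt hepatocyte barcodes, as summed UMIs, differed in opposite directions in the GS-KO and control libraries. With 1 mouse per library the difference between the libraries was not tested, and most of these opposite directions were lost under another weighting of barcodes or at equal depth, as given beside them. The median log2 ratio of mt-rich over low-mt barcodes was -1.25 in the GS-KO and 0.66 in the control library for urea cycle genes, but the control value was -0.23 as a mean over barcodes and -0.024 thinned to 200 UMIs. Periportal genes had -0.88 in the GS-KO and 0.59 in the control library, with -0.11 in the control library after thinning. For lipid and cholesterol synthesis genes it was -0.92 in the GS-KO and 0.67 in the control library, and with low-mt barcodes weighted to the mt-rich depth the GS-KO value was 0.086. Cell cycle genes had 1.06 in the GS-KO library, where 5 of 20 were measured, and -0.89 in the control library, where all 20 were. Macrophage genes were also higher in the GS-KO mt-rich barcodes, at 2999 against 205 CPM, and their part in the cell cycle value was not tested.

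Single genes also lay on opposite sides as ratios of summed UMIs. Arg1, arginase, had 0.224 in the GS-KO and 3.65 in the control library, and Ass1, another urea cycle enzyme, 0.476 and 2.04. Pck1, of gluconeogenesis, had 0.382 in the GS-KO and 3.71 in the control library. Tat, which breaks down tyrosine, had 0.238 in the GS-KO and 3.21 in the control library, and Uox, urate oxidase, 0.363 and 2.43. Mat1a, which makes S-adenosylmethionine, had 0.285 in the GS-KO and 2.67 in the control library. The acute phase gene Crp had 0.308 in the GS-KO and 2.41 in the control library, and Wfdc21 had 0.357 and 3.88. Of these 8 genes, all but Tat lost the opposite direction under an alternative. As a mean over barcodes the control log2 ratios were -0.48 for Arg1, -0.41 for Ass1, -0.11 for Pck1, -0.030 for Uox and -0.038 for Mat1a, and that of Tat was 0.024. With low-mt barcodes weighted to the mt-rich depth, the GS-KO log2 ratios were 0.63 for Crp and 0.50 for Wfdc21. Depth differed between the classes, with medians of 643 against 2636 non-mt UMIs in the GS-KO and 799 against 12236 in the control library.

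Barcodes over 80% mt entered none of the comparisons, apart from the counts per mt UMI. The 7 hepatocyte genes made up 81984 CPM of the non-mt UMIs in the 535 such barcodes of the GS-KO library and 67737 CPM in the 1193 of the control library. The low-mt barcodes of other cells had 1629 CPM of these genes in the GS-KO and 2791 in the control library.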

How the results depend on the processing

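No paired analysis was possible because each group was 1 mouse. Of the values given, 1132 of the recomputed gene ratios lay within the interval of the value reported. Another 503 moved beyond it and 29 changed sign after being called. Of the recomputed list medians, 537 lay within a range drawn from their genes, 73 moved beyond it and 4 changed sign after being called. That range ran from the median of the genes' lower bounds to the median of their upper bounds. It is about as wide as the interval of a single gene and is no interval of the list median. Where no reason is given below, the cause was not tested. Numbers of genes past 2-fold differ with the filter by construction, since it decides which genes are measured. In mt-rich over low-mt GS-KO barcodes they were 59 higher and 157 lower with at least 50 UMIs per gene, 3102 and 3918 with at least 1, and 24 and 22 after thinning to 200 UMIs. A prior count of 5 gave 153 higher and 299 lower, a share of the 7 genes of at least 5% gave 112 higher, and one of at least 10% gave 62 higher and 136 lower. A mean over barcodes gave 356 higher, and low-mt barcodes weighted to the mt-rich depth gave 437 higher. In the control library the numbers were 581 and 199 at 50 UMIs, 2553 and 2919 at 1 UMI and 75 and 147 thinned. They were 1820 and 1567 over 30% mt, 2005 and 2276 as a mean over barcodes, and 2159 and 2098 over 35% mt, with 616 higher at a share of 5% and 260 lower with a prior of 5. For GS-KO over control they were 415 and 1502 at 50 UMIs, 2475 and 6796 at 1 UMI, 49 and 59 thinned, 299 and 686 over 30% mt and 222 and 393 over 35% mt, with 383 higher at a share of 10%.

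The number of mt-rich barcodes is smaller by construction with stricter limits. The GS-KO library had 44 and 6 at shares of 5% and 10%, 40 at most 50% mt and 28 with at least 1000 non-mt UMIs. The control library had 129 and 35, then 135 and 126, and 204 over 30% mt. Scrublet called no mt-rich barcode. The log2 ratio of Glul, GS-KO over control, was -1.81 at a share of 10%, -2.98 thinned, and, with settings added after seeing the data, -4.06 weighted by mt share and -4.00 over 35% mt, against -4.86 as reported.

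Signs changed as follows, on the log2 scale. In mt-rich over low-mt GS-KO barcodes, Pigr was -0.65 at most 50% mt. With low-mt barcodes weighted by depth, the lipid synthesis median was 0.086, Crp 0.63, Wfdc21 0.50 and Cps1 2.49. In the control library Pf4 was -1.71 at a share of 5%, and without barcodes over 1% of other cells' markers Pf4 was -0.071 and Nrgn -0.35. Pf4 is itself among those markers, so that limit removes barcodes rich in it. As a mean over control barcodes, the urea cycle median was -0.23, Ass1 -0.41, Pck1 -0.11, Uox -0.030, Arg1 -0.48, Mat1a -0.038 and Hamp -0.021. Thinned, the periportal median was -0.11, the urea cycle median -0.024, Ass1 -0.11, Uox -0.58 and Hamp -0.15. For GS-KO over control, Cyp2a5 and Cyp1a2 were 0.57 and 0.44 at a share of 10%, which left 6 GS-KO barcodes. Gm42418 was -0.37 as a mean over barcodes, -0.38 thinned, -0.49 weighted by mt share and -0.46 over 35% mt. AY036118 was -0.015, -0.18 and -0.10 under the first 3 of these settings. Lars2 was -0.68, -0.98, -0.55 and -0.36 under the same 4 settings.

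Depth was lowest in the GS-KO mt-rich barcodes, which held 102370 non-mt UMIs in all, so that 3 counts there amount to 29.3 CPM and a gene with 0 UMIs was not detectable below that level. Several directions above changed with the weighting of barcodes and with the mt share, and with 1 mouse per group no value says how either varies between mice.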

Other observations

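Immediate early genes, which cells switch on within minutes of stress or dissociation, were higher in control mt-rich barcodes. All 20 were measured, with a median log2 ratio over low-mt barcodes of 0.57 and 9 at least 1.5-fold higher, beside 24.2% of all genes. Over 35% mt the median was 1.62, with 16 of 20 higher and 2 lower, beside 29.8% of all genes higher. In the GS-KO library 5 were measured, with a median of 0.36 and 1 higher, beside 14.9% of all genes. Their summed level was 1162 CPM in mt-rich and 742 in low-mt GS-KO barcodes, and 764 against 529 in the control library.

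Genes of MHC class I, which presents peptides on most cell types, summed to 5002 against 3155 CPM in the GS-KO library, a ratio of 1.58 (1.43 to 1.76), and to 4154 against 3059 in the control library, a ratio of 1.36 (1.33 to 1.39). Of 14 genes 7 were measured in the GS-KO library and 3 were higher, beside 14.9% of all genes. The control library had all 14 measured and 3 higher, below the 24.2% of all genes. Over 35% mt, 12 of the 14 were higher in the control library, beside 29.8% of all genes. Macrophage genes, which mark cells that express both groups, were also higher over 35% mt, at 3186 and 3264 CPM in the GS-KO and control libraries, and the part of these cells was not tested.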
